A study of Mus musculus with 32 samples.

Results

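Controlled cortical impact, a model of traumatic brain injury (TBI) in which a metal tip is driven into the exposed brain, was compared with sham surgery in mice that carry human APOE3 in place of their own Apoe gene. The animals were chosen by their labels, as those with APOE3+/+ targeted replacement and a TBI or sham label, which gave 15 of the 32 libraries in the series: 8 TBI and 7 sham. Another 15 libraries came from APOE4+/+ animals, and the remaining 2 were given no group because their own labels disagreed. All animals were on the C57BL/6 background. All 15, the shams included, had anaesthesia and a craniotomy of 4.5 mm over the left parietal cortex, so the comparison is of impact after craniotomy with craniotomy alone. The TBI animals then received 1 impact at 3 m/s to a depth of 1.0 mm, with a tip of 3.0 mm and a dwell time of 100 ms. At day 14 the animals were perfused, and a coronal slice of 1.5 mm through the lesion was cut, from which cortex and hippocampus were frozen as 1 sample and subcortical tissue was removed. The titles carry a letter Y, the same in all animals, and a letter M or F, none of which the labels spell out, with 4 M and 4 F animals under TBI and 3 M and 4 F animals under sham, and age was not given in the sources used here. RNA was measured by bulk sequencing as read counts per gene.

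Microglia, the resident immune cells of the brain, respond to injury by clearing debris, and they do so in part through Trem2. Trem2 is a surface receptor for lipids and lipoproteins, apolipoprotein E among them, and it signals through the adaptor Tyrobp (DAP12), which recruits the kinase Syk. Astrocytes around a lesion enlarge, make more intermediate filament and form a scar, and they are also the main source of apolipoprotein E, the lipid carrier that supplies neurons with cholesterol.

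The authors' deposited table held 5582 genes, and its highest p for TBI against sham was 0.0502, so the genes had been selected on injury in a series that includes these animals. Calls within it were therefore not independent of that selection, and other genes were not analysed here. Totals over the listed genes, which are not library depths, ran from 2262242 to 8606717 counts per animal, with 7 shallow libraries of at most 3438521 and 8 deep ones of at least 4959330, and both kinds occurred in both groups. Levels are CPM, the counts of a gene scaled to a common total over the listed genes after TMM scaling. Differences are log2 differences of TBI minus sham, with the standard error of the fit, from the edgeR quasi-likelihood test over the 15 animals with the letter as covariate. A gene passed when its Benjamini-Hochberg adjusted p was under 0.05.

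Of 5339 genes with enough counts to be tested, 3762 passed (70.5%), 1917 of them higher (35.9%) and 1845 lower (34.6%) after TBI. These shares are the background against which every count below should be read. The gene lists were chosen with earlier results of these data known, so counts over a list are not independent support. The rises were the larger: 473 genes (8.86%) rose by at least 2-fold, 125 (2.34%) by at least 4-fold and 51 (0.955%) by at least 8-fold, whereas 21 (0.393%) fell by at least 2-fold. The median rise was 0.56 on the log2 scale, or 1.47-fold, and the median fall was -0.24, or 1.18-fold. The balance of directions depended on the scaling, since total-count scaling in place of TMM moved the median of all genes up by 0.0962 on the log2 scale and the share of higher genes among those that passed from 50.96% to 73.44%. In 609 genes (11.4%) every TBI animal lay above every sham, and in 398 (7.45%) every TBI animal lay below. Within the shallow libraries alone 1665 genes passed, within the deep ones 2026, within the animals with M 2092 and within those with F 1803, each with fewer animals. TBI animal 8 stood apart in several lists, and without it 3309 genes passed and 397 rose by at least 2-fold. Without TBI animal 4 instead, 3284 passed and 412 rose by at least 2-fold.

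**Figure D1:**
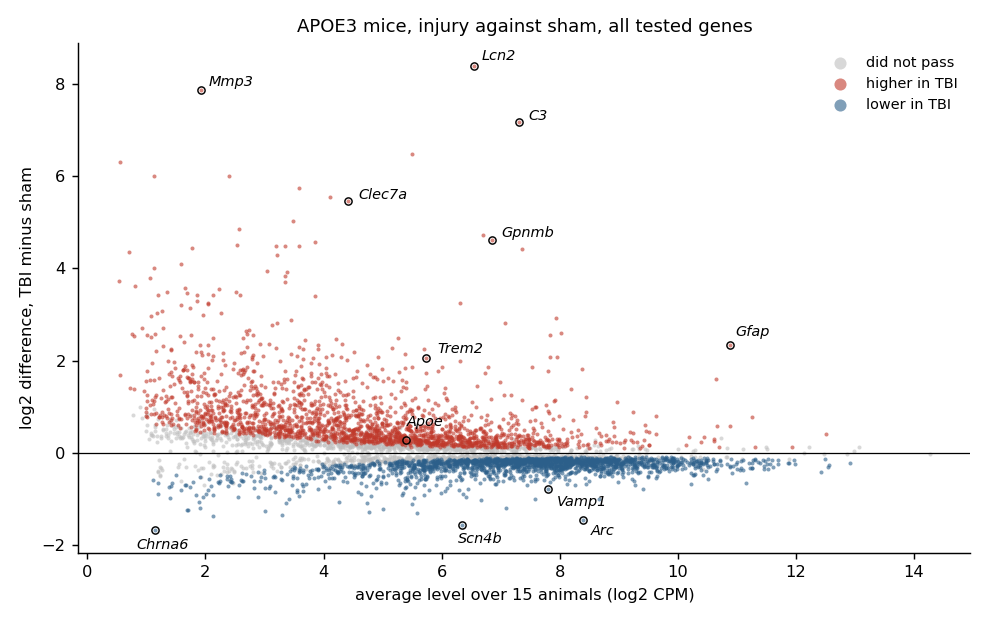
Each point is 1 of the 5339 tested genes, with its average level over the 15 APOE3 animals (log2 CPM) on the horizontal axis and its log2 difference of TBI minus sham on the vertical axis; red and blue genes passed the test as higher or lower and grey genes did not. Rises reached 8.38 (Lcn2), while no fall among genes that passed went below -1.66 (Chrna6).

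Trem2 and Tyrobp, the receptor and adaptor named in the title of the study, were both several-fold higher after TBI. Trem2 lies at chr17:48346401-48352276 and Tyrobp at chr7:30413782-30417582 in RefSeq GRCm38.p6. Trem2 CPM in the 7 shams had a lowest, median and highest value of 18.5, 19.2 and 23.8, and in the 8 TBI animals of 57, 74 and 117. Values of other genes are given in the same order. The groups were far apart, and sham 7 was the highest sham at 23.8 CPM. The log2 difference of Trem2 was 2.05 ± 0.16 (adjusted p = 4.7e-08). Tyrobp CPM was 23.6, 26.9 and 28.1 in the shams and 63.1, 84.9 and 134 in the TBI animals, again without overlap, a difference of 1.87 ± 0.16 (adjusted p = 9.01e-08). In both genes the TBI animals were spread while the shams were tight, with an SD of 1.61 CPM for Tyrobp in the shams and 29.3 CPM in the TBI animals.

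Reads assigned to the mouse gene Apoe moved little by comparison. Apoe CPM was 34.6, 37.4 and 41.9 in the shams and 32.9, 44.9 and 53.7 in the TBI animals, and 6 of the 8 TBI animals lay above every sham while 1 lay below every sham. The difference of 0.27 ± 0.09 passed (adjusted p = 0.013) and is 1.21-fold. These animals carry human APOE in place of mouse Apoe, and how human reads were assigned was not given in the sources used here, so the level of Apoe is that of reads mapped to the mouse gene. Within the animals with M the difference was 0.20 (adjusted p = 0.237) and within those with F 0.35 (adjusted p = 0.0324), while the shallow libraries gave 0.27 (adjusted p = 0.179) and the deep ones 0.30 (adjusted p = 0.0442).

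**Figure D2:**
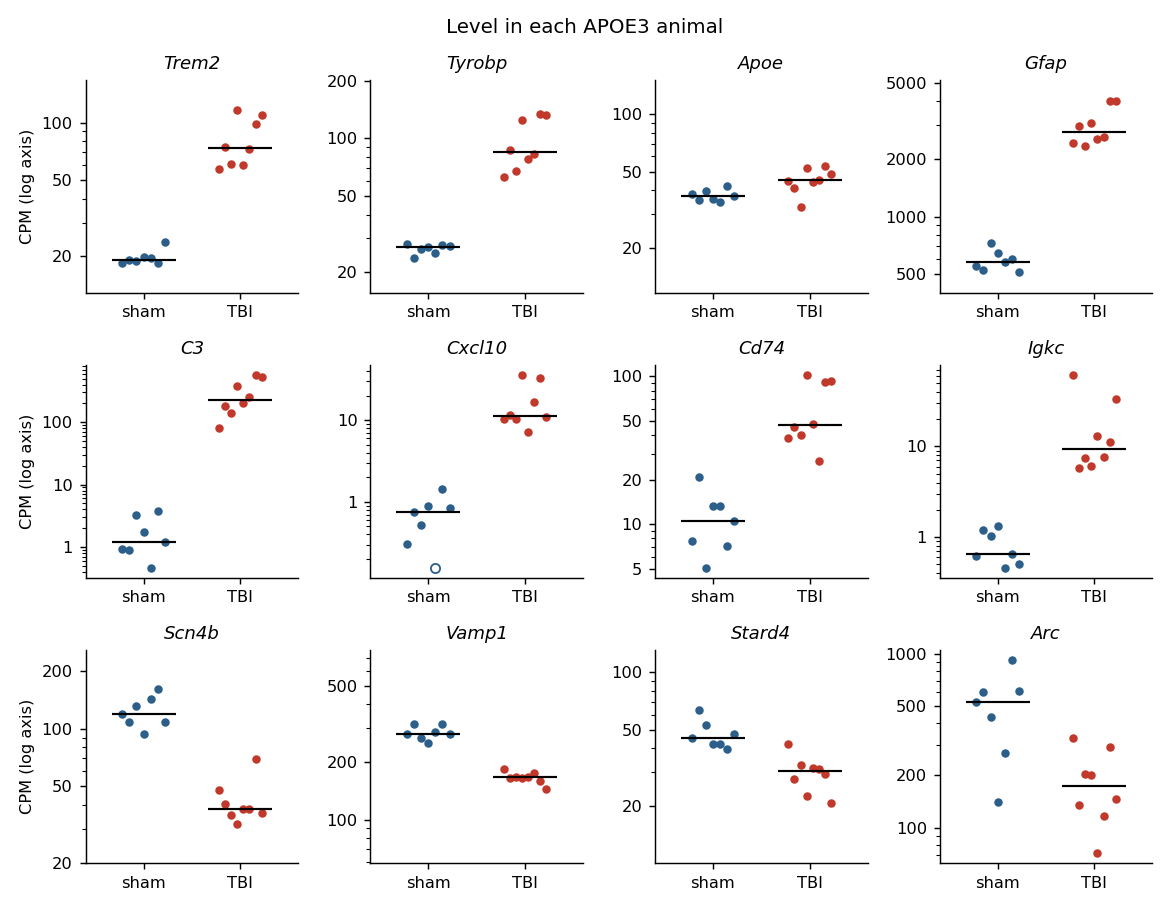
CPM on a log axis for 12 genes in each of the 7 sham (blue) and 8 TBI (red) APOE3 animals, with the group median as a black line; the open circle marks a sham with 0 Cxcl10 counts, drawn below the lowest value above 0. Trem2, Tyrobp, Gfap, C3, Cxcl10, Cd74 and Igkc are higher in every TBI animal than in any sham and Scn4b and Vamp1 lower, whereas Apoe, Stard4 and Arc overlap between the groups.

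Genes of the Trem2 and Tyrobp signalling list rose together. All 19 tested members of 20 rose, 18 of them without overlap between the groups, and their median difference was 1.28, beside 0.08 over all tested genes. Clec7a (dectin-1), a receptor for fungal glucans that also signals through Syk, went from 0.337, 0.881 and 1.3 CPM in the shams to 19.7, 36.2 and 58.9 CPM in the TBI animals. The groups did not meet, and the difference was 5.46 ± 0.33, or 44.2-fold. Lilrb4a, an inhibitory receptor, rose by 4.50 ± 0.44, and its neighbours in its gene cluster are close copies whose reads may be shared. Fewer cells of a type and less RNA per cell cannot be told apart in bulk tissue, and neither can more cells and more RNA per cell.

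Homeostatic microglial genes, the markers of the resting state, also rose, although by less. All 19 tested of 20 passed, with a median of 0.83. Lag3 rose most (2.14 ± 0.16), from a sham median of 13.1 CPM to a TBI median of 64.2 CPM. The calcium-binding protein Aif1 (Iba1), the usual stain for microglia, rose by 1.48 ± 0.15 and the Fc receptor-like gene Fcrls by 1.44 ± 0.17, both without overlap between the groups. Csf3r, the receptor for granulocyte colony-stimulating factor, rose by 1.72 ± 0.12 and is also a neutrophil marker.

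The disease-associated microglial programme, which is known from models of neurodegeneration and is partly Trem2-dependent, had a higher median. Of 29 tested members 28 rose and 1 fell, and the median was 1.61. Cst7, an inhibitor of lysosomal cysteine proteases, had 0, 0.169 and 0.905 CPM in the shams and 8.64, 18.6 and 38.2 CPM in the TBI animals, a difference of 5.74 ± 0.46, which was 6.48 with sham 3 left out. Gpnmb, a membrane glycoprotein of lipid-laden phagocytes, had 5.22, 9.05 and 11 CPM in the shams and 44, 214 and 372 CPM in the TBI animals. The TBI range of Gpnmb was wide, with animal 1 lowest and animal 8 highest, and its difference was 4.61 ± 0.38. Lgals3 (galectin-3) rose by 4.56 ± 0.42 and the integrin Itgax (CD11c) by 4.28 ± 0.32. Ank, a pyrophosphate transporter, was the member that fell (-0.12 ± 0.04, adjusted p = 0.0119), and it did not pass with total-count scaling (-0.03).

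Lysosomal genes also rose, 27 of 30 tested, with a median of 0.79. Ctsd (cathepsin D), an abundant aspartic protease, had 708, 765 and 842 CPM in the shams and 1475, 2172 and 3492 CPM in the TBI animals. The cysteine protease Ctss (cathepsin S), which microglia use to process antigen, had 125, 142 and 156 CPM in the shams and 352, 463 and 657 CPM in the TBI animals. Neither gene overlapped between the groups, and the differences were 1.6 ± 0.14 and 1.82 ± 0.12. Cd68, a lysosomal membrane protein used to mark phagocytes, rose by 2.25 ± 0.18. Atp6v0d2, a proton pump subunit, had 1 count over all 7 shams and 126 over the 8 TBI animals, a ratio of 118 with a 95% counting interval from 20.8 to 4690. The members that did not pass included the cholesterol exporter Npc1 (0.15 ± 0.07) and the membrane protein Scarb2 (0.13 ± 0.07). Npc1 passed without TBI animal 5 (0.17, adjusted p = 0.036) or 6 (0.18, adjusted p = 0.0283).

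Complement genes rose in 16 of 17 tested members, with a median of 1.77. C3, the component on which all complement pathways converge, was close to the detection limit in the shams at 0.456, 1.18 and 3.74 CPM and reached 82.2, 228 and 582 CPM after TBI. That is 144-fold (log2 7.17 ± 0.48, adjusted p = 9.84e-09), with animal 1 lowest and animal 7 highest. C4b rose by 2.59 ± 0.14, from 56, 73.4 and 79.1 to 306, 391 and 630.5 CPM, and its close copy C4a may share its reads. The protease C1s1, which starts the classical pathway, rose by 2.67 ± 0.36. C2 did not pass in the full comparison (0.54 ± 0.25, adjusted p = 0.0604), but did without sham 2 (0.69, adjusted p = 0.0266), sham 5 (0.62, adjusted p = 0.0454), TBI animal 1 (0.60, adjusted p = 0.0472) or TBI animal 5 (0.63, adjusted p = 0.0258).

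Fc receptors, scavenger receptors and the phagocyte oxidase rose in 18 of 19 tested genes, with a median of 1.49. Cybb, the catalytic subunit of the oxidase, rose by 3.70 ± 0.36, from 0.905, 1.37 and 1.54 to 6.42, 12.9 and 40.5 CPM. The activating Fc receptor Fcgr4 rose by 3.58 ± 0.40 (4.26 with sham 3 left out), the inhibitory Fcgr2b by 2.07 ± 0.18 and the scavenger receptor Msr1 by 3.43 ± 0.45. The engulfment receptor Megf10, which astrocytes use, did not pass (0.17 ± 0.08), but did without sham 3 (0.22, adjusted p = 0.0342) or sham 6 (0.21, adjusted p = 0.0395). Macrophage markers moved in the same direction: 11 of 20 were tested and all 11 rose, with a median of 1.86, and the 16 in the table summed to 115 to 204 CPM in the shams and 183 to 560 CPM in the TBI animals. Cd5l, a macrophage-secreted protein, had 4 counts over all shams and rose by 5.99 ± 0.58, while Ms4a7 rose by 3.23 ± 0.48. The markers Lyve1, Cbr2, Arg1 and Chil3 were not analysed here, and Pf4, Ly6c2, Clec4n, Plac8 and Ms4a4a were too low to test. The part of macrophages in the microglial lists was not tested.

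**Figure D3:**
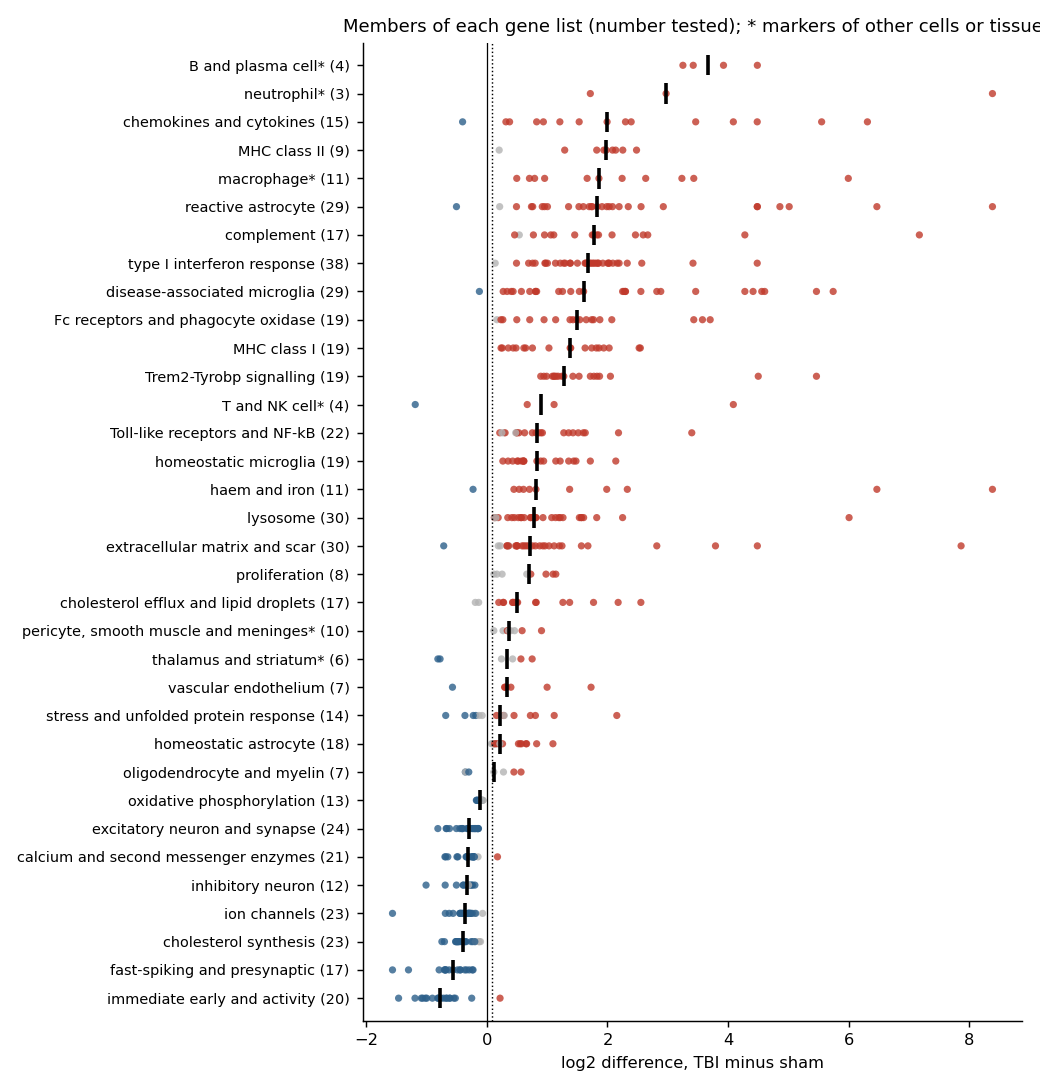
Log2 difference of TBI minus sham for each tested member of the gene lists, with the number tested in parentheses; red passed as higher, blue as lower and grey did not pass, the black bar is the list's median and the dotted line the median of all tested genes (0.08). Immune, glial and scar lists lie to the right, neuronal, cholesterol synthesis and activity lists lie to the left with medians no lower than -0.77, and starred lists mark other cells or tissue.

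Interferon-stimulated genes rose in 37 of 38 tested members of 41, with a median of 1.67. The chemokine Cxcl10, a classical interferon target that attracts T cells, had 0, 0.746 and 1.46 CPM in the shams and 7.12, 11.2 and 36.4 CPM in the TBI animals. Animals 4 and 7 were the high ones at 36.4 and 33.3 CPM, and the difference was 4.48 ± 0.48 (adjusted p = 1.14e-06). Zbp1, a sensor of Z-form nucleic acid, rose by 3.42 ± 0.55, Mx1, an antiviral GTPase, by 2.57 ± 0.48 and Ifi27l2a by 2.33 ± 0.30. Stat2, a subunit of the interferon-activated transcription factor itself, missed the threshold (0.14 ± 0.06, adjusted p = 0.0538) and passed at 0.16 or 0.17 when sham 2, 4 or 7 or TBI animal 1, 5 or 6 was left out (adjusted p from 0.0323 to 0.0461). The list differed in order from the microglial lists: its score, the mean log2 CPM of the members relative to the sham mean, was highest in animal 7 (2.24) and lowest in animal 5 (0.92), and animal 8, the highest in the Trem2 and Tyrobp list (2.17), had 1.75.

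Promoters of this list were searched for the interferon-stimulated response element, the sequence to which the interferon-activated factors bind. The motif was GAAA, any 2 bases and GAAA again, on either strand, within the 300 bases around each start site in the RefSeq table of build GRCm38.p6. It was found in 16 of the 28 list members with a promoter there (57.1%), and in 190 of 4188 tested genes (4.54%). Over all genes with a promoter of the same length it was found in 3.99%, and over all 32851 promoters in 3.44%. The list was made up of known interferon-stimulated genes, so a high share came with its choice and says nothing about the injury. The 5 matching members with the largest differences are printed 5′ to 3′ on the gene's strand, with the motif in capitals, overlapping matches being run together; where the capitals read TTTC the match is on the other strand.
Cxcl10, chr5:92348840-92349139, minus strand: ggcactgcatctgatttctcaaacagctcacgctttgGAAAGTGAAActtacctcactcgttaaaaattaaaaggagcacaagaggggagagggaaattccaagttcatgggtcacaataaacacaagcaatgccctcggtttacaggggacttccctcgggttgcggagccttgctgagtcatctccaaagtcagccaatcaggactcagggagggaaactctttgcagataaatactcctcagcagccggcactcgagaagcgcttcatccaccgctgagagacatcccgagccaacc
Gbp2, chr3:142620413-142620712, plus strand: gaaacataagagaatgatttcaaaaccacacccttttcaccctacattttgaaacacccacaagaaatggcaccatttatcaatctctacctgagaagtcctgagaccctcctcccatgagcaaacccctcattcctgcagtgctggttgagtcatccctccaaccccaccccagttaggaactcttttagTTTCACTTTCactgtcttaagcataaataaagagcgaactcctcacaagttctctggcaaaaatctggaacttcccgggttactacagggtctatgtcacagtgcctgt
Bst2, chr8:71537423-71537722, minus strand: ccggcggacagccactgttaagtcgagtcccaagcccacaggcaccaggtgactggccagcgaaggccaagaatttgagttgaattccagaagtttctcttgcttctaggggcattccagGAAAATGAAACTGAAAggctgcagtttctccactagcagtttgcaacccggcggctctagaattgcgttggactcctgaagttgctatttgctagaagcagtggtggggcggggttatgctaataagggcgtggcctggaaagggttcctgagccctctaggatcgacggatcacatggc
Oas1a, chr5:120907476-120907775, minus strand: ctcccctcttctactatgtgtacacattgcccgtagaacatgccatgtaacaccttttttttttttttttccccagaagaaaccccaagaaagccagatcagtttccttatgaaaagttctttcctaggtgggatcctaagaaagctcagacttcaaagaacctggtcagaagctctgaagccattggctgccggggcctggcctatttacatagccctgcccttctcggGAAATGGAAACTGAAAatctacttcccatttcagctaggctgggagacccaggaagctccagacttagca
Trim30a, chr7:104465144-104465443, minus strand: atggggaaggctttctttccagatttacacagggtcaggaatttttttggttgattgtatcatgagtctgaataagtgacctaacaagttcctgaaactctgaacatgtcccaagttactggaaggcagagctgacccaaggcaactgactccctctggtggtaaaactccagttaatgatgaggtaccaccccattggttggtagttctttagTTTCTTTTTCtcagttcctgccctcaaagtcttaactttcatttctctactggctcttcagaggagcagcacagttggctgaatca
Gbp2, a guanylate-binding protein, rose by 2.19 ± 0.20, and Bst2 (tetherin), which holds virions at the cell surface, by 1.92 ± 0.21. Oas1a, a sensor of double-stranded RNA, rose by 1.85 ± 0.33 and Trim30a by 1.78 ± 0.26. A match describes the letters in this window and shows neither binding nor a cause.

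MHC class I and antigen-processing genes rose in all 19 tested members, with a median of 1.38. The classical and non-classical heavy chains are near-identical in sequence, so the reads of H2-Q6 (2.54 ± 0.39) and H2-Q7 (2.52 ± 0.39) may be shared between them. The immunoproteasome subunit Psmb8 rose by 2.03 ± 0.24, from 3.19, 4.41 and 5.07 to 7.54, 17.9 and 26.8 CPM. Nlrc5, the transactivator of class I genes, rose by 1.94 ± 0.24. MHC class II genes rose in 8 of 9 tested members with a median of 1.98. Cd74, the invariant chain that escorts class II molecules, had 5.04, 10.4 and 20.9 CPM in the shams and 26.9, 46.7 and 103 CPM in the TBI animals. Animals 4, 7 and 8 were at 91.1 to 103 CPM and the other 5 at 26.9 to 47.8 CPM, with no overlap with the shams, and the difference was 2.48 ± 0.34. H2-Eb1 rose by 2.25 ± 0.36, H2-Ab1 by 2.14 ± 0.38 and H2-Aa by 2.08 ± 0.37. The peptide editor H2-DMa did not pass (0.20 ± 0.10), but did without TBI animal 8 (0.26, adjusted p = 0.0345).

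Chemokines and cytokines were sparse: of 30 listed, 15 could be tested, 14 rose and 1 fell, and Ccl2, Ccl7, Ccl8, Cxcl1, Cxcl9, Il1b and Tnf were among 8 in the table too low to test. Il1rn, the antagonist of the interleukin-1 receptor, was not counted in any sham and had 78 counts in the TBI group. Taking 3 counts over the 7 shams together as the floor, that was at least 24.3-fold higher. The neutrophil attractant Cxcl5 rose by 5.55 ± 0.47, from 0.298, 0.647 and 0.975 to 12.2, 27.1 and 68.6 CPM, and the T cell attractant Ccl5 by 4.09 ± 0.41. Cx3cl1 (fractalkine), which neurons make and microglia sense, was the member that fell (-0.40 ± 0.07), from 1646, 1783 and 2035 to 1116, 1435 and 1538 CPM, with every TBI animal below every sham. Of 22 tested genes of Toll-like receptors and NF-kB signalling 19 rose, and the median was 0.84. Tlr2, which recognises lipoproteins, rose most of these (3.40 ± 0.28), followed by Tlr1 (2.18 ± 0.32), the adaptor Ticam2 (1.63 ± 0.27) and the co-receptor Cd14 (1.6 ± 0.20).

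The reactive astrocyte list rose strongly, while the homeostatic astrocyte list shifted little. Some reactive members also stand in other lists, such as Cxcl10, Gbp2 and Psmb8 in the interferon list. Which cells made this RNA was not tested. Of 29 tested reactive genes 27 rose, 1 fell and 1 did not pass, with a median of 1.83. Gfap, the astrocyte intermediate filament, had 515, 579 and 728 CPM in the shams and 2344, 2787 and 4042 CPM in the TBI animals. The groups were far apart, and the difference was 2.35 ± 0.12 (adjusted p = 1.09e-09), the smallest p of any gene that rose. Vim (vimentin), its filament partner, rose by 2.56 ± 0.16, and Osmr, a receptor subunit for oncostatin M, by 2.08 ± 0.14. Among all genes, Lcn2 (lipocalin-2), an iron-siderophore carrier, rose most among those with an average of at least 1 CPM: 0.309, 0.456 and 0.746 CPM in the shams and 38.1, 111 and 324 CPM in the TBI animals. That is 334-fold (log2 8.38 ± 0.69), and animal 1 was lowest and animal 4 highest.

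The metalloreductase Steap4 rose by 6.47 ± 0.48, from 0.441, 0.776 and 1.64 to 23.4, 62.4 and 162 CPM. The transglutaminase Tgm1 rose by 5.01 ± 0.43 and the pentraxin Ptx3 by 4.86 ± 0.54. Serpina3n, a secreted protease inhibitor of a cluster of close copies whose reads may be shared, went from 34.2, 53.6 and 68 to 222, 365 and 678 CPM, a difference of 2.93 ± 0.22. Ptgs2 (cyclooxygenase-2), which in cortex is largely a neuronal activity gene, was the member that fell (-0.50 ± 0.20, adjusted p = 0.034); the call was lost without sham 1, 3, 5 or 6 or without TBI animal 2, 3, 4 or 8, at -0.51 to -0.36 (adjusted p from 0.0509 to 0.0932). The filament Nes did not pass (0.21 ± 0.18), but did without sham 6 (0.42, adjusted p = 0.0246).

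Homeostatic astrocyte genes rose in 11 of 18 tested members and 7 did not pass, with a median of 0.21. Aqp4, the water channel of the end-feet, rose most (1.10 ± 0.09), from a sham median of 309 CPM to a TBI median of 643 CPM, without overlap. The brain fatty acid carrier Fabp7 rose by 0.83 ± 0.13 and the transcription factor Sox9 by 0.65 ± 0.13. The main glutamate transporter Slc1a2 had 7087, 8126 and 9295 CPM in the shams and 7674, 9033 and 10510 CPM in the TBI animals (0.13 ± 0.07). Glutamine synthetase, Glul, likewise overlapped between the groups (0.08 ± 0.07). Both passed with total-count scaling, at 0.23 for Slc1a2 and 0.17 for Glul, and Slc1a2 also passed without TBI animal 4 (0.17, adjusted p = 0.0257).

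Matrix and scar genes rose in 26 of 30 tested members, with a median of 0.72. Mmp3 (stromelysin-1), a matrix protease, was not counted in any sham and had 258 counts in the TBI group, which with the same floor was at least 80.4-fold higher. Its TBI values ran from 0.419 to 20.8 CPM. Animal 4 held 170 of the counts, and without it the TBI group was at least 34.6-fold higher. Timp1, a metalloprotease inhibitor, rose by 4.49 ± 0.54, and the macrophage elastase Mmp12 by 3.79 ± 0.42 (4.90 with sham 6 left out). Spp1 (osteopontin), a matrix protein made by activated microglia, rose by 2.82 ± 0.37, from 20.1, 28.7 and 50 to 68.2, 159 and 415 CPM. Acan (aggrecan), a proteoglycan of the perineuronal nets around fast-spiking interneurons, was the one that fell (-0.71 ± 0.18) and is named here after its value was seen. Animal 8 stood above the others, with a list score of 1.77 against at most 1.12. The pericyte, smooth muscle and meningeal markers followed the same animal, with a score of 1.13 in animal 8 and at most 0.65 in the others, and 5 of 10 tested rose, among them Igf2 (0.91 ± 0.24) and Lum (0.58 ± 0.18). Their part in the matrix result was not tested.

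Endothelial genes were few in the table, 7 of 24, and 6 of these rose with a median of 0.33. The adhesion molecules Icam1 (1.73 ± 0.22) and Vcam1 (1.00 ± 0.11), through which leukocytes enter tissue, rose most. Cd34, a sialomucin of endothelium and progenitors, fell (-0.57 ± 0.08) with every TBI animal below every sham. The junction protein Cdh5 rose by 0.40 ± 0.14, with animal 8 alone at 49.9 CPM and the other TBI animals at 29.9 CPM or below, and did not pass without sham 7 (0.32, adjusted p = 0.0507).

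Most lymphocyte and neutrophil markers that could be tested were low but higher after TBI. Of 13 B and plasma cell markers 4 were tested and all 4 rose, and the 5 in the table summed to 3.09 to 7.49 CPM in the shams and 16.5 to 119 CPM in the TBI animals. The immunoglobulin light chain gene Igkc had 0.456, 0.650 and 1.32 CPM in the shams and 5.74, 9.41 and 61.9 CPM in the TBI animals. Animals 1 and 8 were far above the others, and the difference of 4.49 ± 0.68 was 3.67 with animal 1 left out. The heavy chain gene Igha rose by 3.92 ± 0.48 and the joining chain Jchain by 3.25 ± 0.60. Cd22, which microglia also express, rose by 3.42 ± 0.34. The defining B cell genes Cd79a and Ms4a1 were not analysed here. Of 18 T and NK cell markers 4 were tested, of which Ccl5, Trac (1.11 ± 0.31) and Lck (0.67 ± 0.22) rose and Trbc2 fell (-1.19 ± 0.28), while Cd3d, Cd3e, Cd3g and Cd4 were not analysed here. Of 14 neutrophil markers 3 were tested and rose: S100a8 (2.97 ± 0.52), Csf3r and Lcn2, of which the last 2 belong to glial lists as well. Erythrocyte markers were not analysed here.

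The list of efflux and lipid droplet genes and the list of cholesterol synthesis moved in opposite directions. Efflux and lipid droplet genes rose in 15 of 17 tested members with a median of 0.50. Abca1, which loads cholesterol onto apolipoprotein E, had 77, 97.5 and 122 CPM in the shams and 244, 289 and 546 CPM in the TBI animals, a difference of 1.77 ± 0.15. Cholesterol 25-hydroxylase, Ch25h, rose by 2.55 ± 0.33, and Apoc1, the neighbour of Apoe, by 2.18 ± 0.39. The members that did not pass were the receptor Scarb1 (-0.14 ± 0.07) and the liver X receptor Nr1h2 (-0.19 ± 0.09). Nr1h2 passed without sham 5 (-0.23, adjusted p = 0.0228) or TBI animal 8 (-0.25, adjusted p = 0.0107), and with DESeq2 (-0.21, adjusted p = 0.0349) or limma-voom (-0.20, adjusted p = 0.0431).

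Cholesterol synthesis and uptake genes fell in 19 of 23 tested members, with a median of -0.40, and none rose. Stard4, a sterol carrier, had 39.6, 45.4 and 63.1 CPM in the shams and 20.8, 30.2 and 41.9 CPM in the TBI animals. All TBI animals but animal 1, at 41.9 CPM, lay below every sham, and the difference was -0.70 ± 0.13. The isomerase Idi1 fell by 0.51 (adjusted p = 0.0172). Animal 1 had a list score of -0.07, inside the sham range of -0.24 to 0.17, and the other TBI animals were at -0.65 to -0.32. In 2 of the 23 genes every TBI animal was below every sham, a share close to that over all tested genes (7.45%).

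Genes of neurons fell by small amounts under TMM scaling. All 24 tested excitatory and synaptic genes fell, with a median of -0.30 and a smallest fall of -0.14. Total-count scaling moved the median of all genes up by 0.0962 and left 864 genes lower in place of 1845. The size of the small falls in the neuronal lists therefore depended on the scaling. Slc17a6 (VGLUT2), the vesicular glutamate transporter of deep and thalamic projections, fell most (-0.81 ± 0.13), from 82.7, 90.7 and 155 to 36.6, 61.3 and 73.1 CPM. The sham maximum came from sham 2. The neurofilament Nefh fell by 0.67, Nefm by 0.66 and the scaffold Homer1 by 0.62. Slc17a6 is also a thalamic marker, and of 6 tested markers of the thalamus and striatum it and Ramp3 (-0.78 ± 0.12) fell, Prkcd (0.75 ± 0.12) and Synpo2 (0.57 ± 0.16) rose and 2 did not pass. The part of dissection in the neuronal lists was not tested.

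Inhibitory neuron genes fell in 11 of 12 tested members with a median of -0.33. Lamp5, of neurogliaform interneurons, had 232, 248 and 303 CPM in the shams and 101, 133 and 155 CPM in the TBI animals, a difference of -1.01 ± 0.08 (adjusted p = 4.91e-08). Parvalbumin, Pvalb, the calcium buffer of fast-spiking interneurons, had 62.6, 72.3 and 92.1 CPM in the shams and 34.6, 48.4 and 53.7 CPM in the TBI animals. Neither gene overlapped between the groups, and Pvalb differed by -0.69 ± 0.10. The GABA-A receptor subunit Gabrd fell as well (-0.50 ± 0.07). Cort, a neuropeptide, did not pass (-0.30 ± 0.27).

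The fast-spiking and presynaptic list had the largest share of falls without overlap between the groups. All 17 tested genes fell, beside 34.6% of all tested genes. In 14 of the 17 every TBI animal was below every sham, beside 7.45% of all tested genes. The median was -0.56. The list was chosen with earlier results of these data known, so its regularity is not independent support. Scn4b, a sodium channel subunit that supports rapid firing, had 94.3, 120.5 and 161 CPM in the shams and 31.9, 38.2 and 69.3 CPM in the TBI animals. The highest TBI animal, animal 7, was still below the lowest sham, and the difference was -1.56 ± 0.14 (adjusted p = 1.47e-07). Syt2 (synaptotagmin-2), the calcium sensor of fast inhibitory terminals, had 52.8, 73.1 and 84.6 CPM in the shams and 19.8, 28.8 and 37.9 CPM in the TBI animals, a difference of -1.30 ± 0.12. Vamp1 (synaptobrevin-1), a vesicle fusion protein, had 253, 282 and 318 CPM in the shams and 144, 166 and 183 CPM in the TBI animals. At -0.79 ± 0.06 it had the smallest p of any gene that fell (adjusted p = 2.05e-08). The 8 TBI values of Vamp1 lay close together, unlike those of Trem2.

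Ion channels fell in 21 of 23 tested genes with a median of -0.37. Scn1a, the axonal sodium channel of interneurons, fell by 0.69 (adjusted p = 9.44e-08), from 345, 385 and 402 to 203, 241 and 272 CPM. The axonal potassium channel Kcna2 (-0.56 ± 0.06) also fell without overlap. The subunits Scn3b (-0.20 ± 0.10) and Cacnb3 (-0.07 ± 0.04) did not pass, and Scn3b did without sham 2 (-0.24, adjusted p = 0.0431) or TBI animal 5 (-0.25, adjusted p = 0.0376) or 6 (-0.25, adjusted p = 0.0354). Calcium and second messenger enzymes fell in 19 of 21 tested genes with a median of -0.31. The calcium pump Atp2b2 had 1248, 1507 and 1784 CPM in the shams and 788, 959.8 and 1072 CPM in the TBI animals, a difference of -0.68 ± 0.08. The phospholipase Plcb4 fell by 0.69 and the adenylate cyclase Adcy1 by 0.65. Camk2d, a kinase isoform, was the member that rose (0.18 ± 0.07, adjusted p = 0.0386); it lay inside the sham range in all 8 TBI animals and did not pass without any 1 of shams 1, 3, 4, 5 and 6 or TBI animals 3, 7 and 8, at 0.14 to 0.18 (adjusted p from 0.0556 to 0.0924).

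Activity-dependent genes had the lowest median of any list, -0.77, but also the widest sham spread among the lists that fell. Of 20 tested, 19 fell. Arc, a regulator of synaptic strength induced by firing, had 141, 525 and 924 CPM in the shams and 71.6, 174 and 329.7 CPM in the TBI animals. The groups overlapped, since sham 4 had 141 CPM and 5 of the TBI animals lay above it, and the difference was -1.46 ± 0.32 (adjusted p = 0.00107). The nuclear receptor Nr4a1 fell by 1.19, the transcription factor Npas4 by 1.09 and Egr2 by 1.06, all with overlap. Jun was the member that rose (0.22 ± 0.06), with 7 of 8 TBI animals above every sham. The score of the list ran from -0.97 to -0.26 in the TBI animals and from -0.76 in sham 4 to 0.56 in sham 6. The cAMP response element, to which CREB binds, was searched as TGACGTCA on both strands in the same windows. Matches lay in 3.27% of tested genes, in 2.03% of all genes with a promoter and in 1.79% of all promoters. The element was found in 1 of 15 list members with a promoter (6.67%). That member was Dusp1, a phosphatase of MAP kinases, which fell by 0.66 and whose promoter is printed with the motif in capitals.
Dusp1, chr17:26508423-26508722, minus strand: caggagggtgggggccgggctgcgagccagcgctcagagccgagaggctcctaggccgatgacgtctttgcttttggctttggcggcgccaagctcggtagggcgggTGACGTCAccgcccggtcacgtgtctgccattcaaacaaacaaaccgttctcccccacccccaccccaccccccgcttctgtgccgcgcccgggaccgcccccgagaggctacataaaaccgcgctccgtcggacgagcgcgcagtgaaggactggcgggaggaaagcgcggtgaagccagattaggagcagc

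Outside the lists, the largest falls were Chrna6, a nicotinic receptor subunit at 0.975, 2.36 and 7.01 CPM in the shams and 0, 1.01 and 1.64 CPM after TBI (-1.66 ± 0.50), and the keratin Krt80 (-1.38 ± 0.22). Chrna6 was near the limit of counting, and 3 of 8 TBI animals were below every sham. The Wnt agonist Rspo1 fell by 1.35 with no overlap, from 12.1, 13.2 and 19.3 to 3.42, 4.75 and 8.44 CPM. The disaccharidase Lct fell by 1.29, the adhesion receptor Adgrd1 by 1.26, the thyrotropin-releasing hormone receptor Trhr2 (-1.25 ± 0.23), Asb11 by 1.23 and the desmosomal protein Dsp by 1.22. Cds1, which makes phospholipid precursors, fell by 0.56 with one of the smallest p (adjusted p = 8.53e-08). Among the rises outside the lists, the protease Klk6 went from 0.912, 2.16 and 2.98 to 9.35, 15 and 19.3 CPM (2.80 ± 0.21).

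Other gene groups moved less or in both directions. Iron and haem genes rose in 10 of 11 tested members with a median of 0.81. The ferroxidase Cp rose by 1.99 ± 0.27, the phagosomal metal transporter Slc11a1 by 2.33 ± 0.20 and haem oxygenase Hmox1 by 1.37 ± 0.18. The transferrin receptor Tfrc fell (-0.23 ± 0.08), and its call was lost without sham 3 (-0.20, adjusted p = 0.0567), sham 7 (-0.17, adjusted p = 0.064), TBI animal 7 (-0.20, adjusted p = 0.0503) or TBI animal 8 (-0.17, adjusted p = 0.0632). In the stress list 7 of 14 tested rose, 4 fell and 3 did not pass. Atf3, an injury-induced transcription factor, rose by 2.15 ± 0.27, and the metallothioneins Mt1 and Mt2, close copies whose reads may be shared, by 0.81 ± 0.09 and 1.12 ± 0.10.

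Of 7 tested myelin genes Gsn (0.57 ± 0.11) and Trf (0.45 ± 0.11) were higher, Mal (-0.36 ± 0.12) and Fa2h (-0.30 ± 0.11) lower and 3 did not pass, so the share in neither direction was above that over all tested genes (35.9% higher and 34.6% lower). Fa2h did not pass without sham 3 (-0.22, adjusted p = 0.0871) or sham 6 (-0.21, adjusted p = 0.0844). The structural myelin genes Mbp and Mog were not analysed here. Of 13 oxidative phosphorylation genes 7 fell and 6 did not pass, with a median of -0.11, and Atp5b (-0.17 ± 0.04) and Ndufv1 (-0.17 ± 0.05) did not pass with total-count scaling, at -0.08 and -0.07. Of 21 proliferation genes listed 8 were tested, of which 4 rose and 4 did not pass, beside 35.9% higher over all tested genes. With so few genes no rise of the list is read from this. Those that rose included Mki67 (1.14 ± 0.21), Top2a (1.10 ± 0.20) and the helicase subunit Mcm3 (0.98 ± 0.15). Those that did not pass included Tyms (0.25), Ccnd2 (0.17) and Rrm2 (0.12), and Pcna was not analysed here. The ependymal gene Foxj1 (1.02 ± 0.27) and Rarres2 (0.92 ± 0.22), 2 of 12 markers of the choroid plexus and ependyma, rose, and the choroid plexus gene Ttr was not analysed here.

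The median SD was larger among the injured animals than among the shams, a difference that was not tested. Over the 473 genes that rose by at least 2-fold, the median SD of log2 CPM was 0.49 in the TBI animals and 0.39 in the shams. Over the 4063 genes whose log2 CPM averaged 4 or more it was 0.15 and 0.12. The 473 genes were picked by their rise in these same animals, so the values below only describe them. Relative to the shams, the median rise over the 473 genes was 1.10 in animal 1, 1.36 in animal 2, 1.17 in animal 3 and 1.72 in animal 4. It was 1.14 in animal 5, 1.36 in animal 6, 1.96 in animal 7 and 2.0 in animal 8. Animal 8 was the highest of the 8 in 236 of these genes and animal 7 in 148. Animal 5 was the lowest in 155, animal 1 in 132 and animal 3 in 99. Libraries 1, 4, 6 and 8 were deep and 2, 3, 5 and 7 shallow, and animals 1 to 4 carried the letter M and 5 to 8 the letter F, so the high animals 4, 7 and 8 included both kinds of each.

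**Figure D4:**
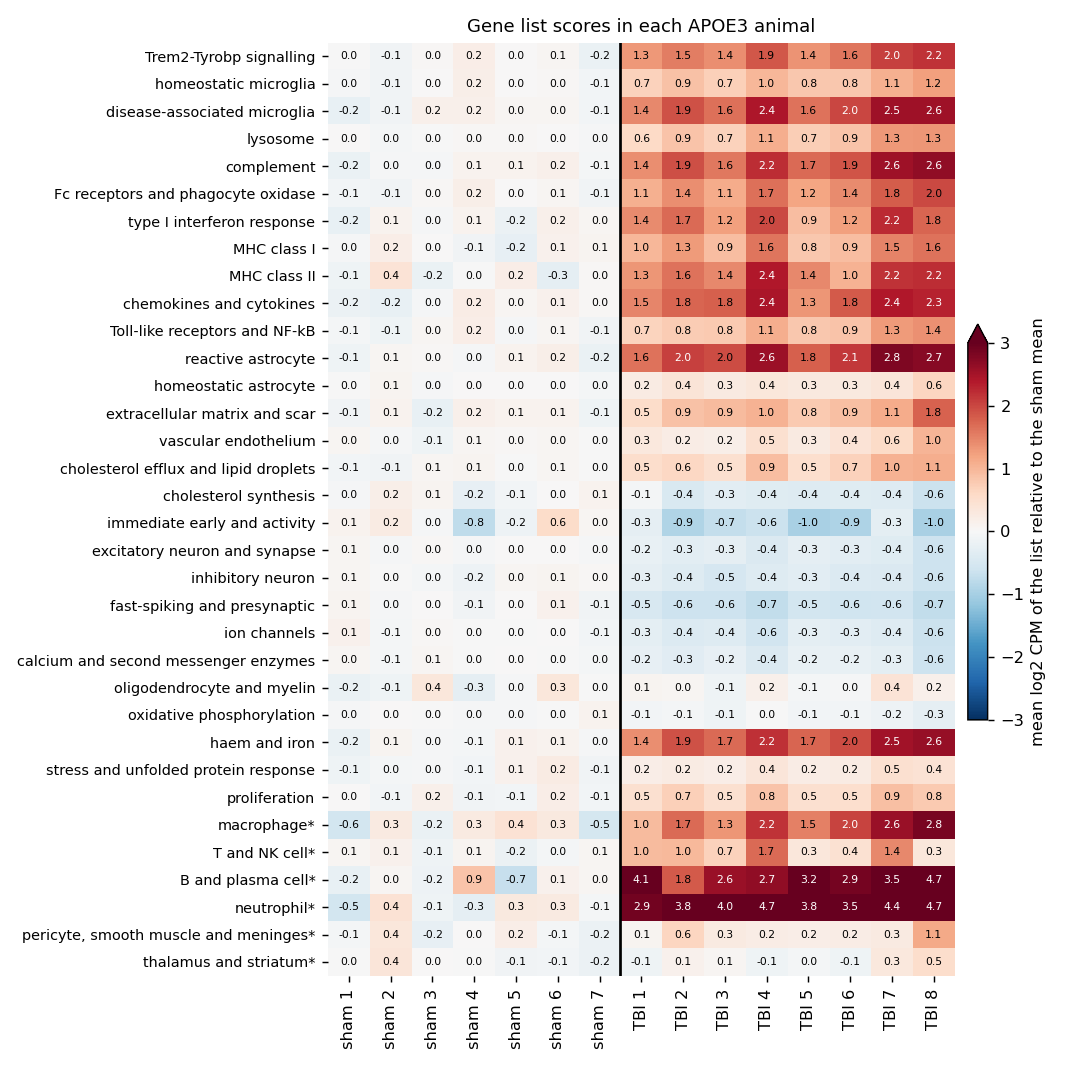
Scores of the gene lists with at least 3 tested members in each of the 7 sham and 8 TBI APOE3 animals, as the mean log2 CPM of the members relative to the sham mean, with red higher and blue lower (colours saturate at 3). Animals 4, 7 and 8 have the highest Trem2 and Tyrobp scores (1.87, 2.05 and 2.17), and the activity list varies among the shams from -0.76 to 0.56.

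Over 215 genes with a difference of -0.5 or lower, the median fall was smallest in animal 1 (-0.44) and largest in animals 8 (-0.81) and 4 (-0.75), which were also at the low and the high end of the rises. It was -0.61 in animal 2, -0.56 in animal 3, -0.63 in animal 5 and -0.65 in animal 6. Animal 7, second highest in its median rise (1.96), had the second smallest median fall (-0.55). The excitatory score was -0.36 in animal 7 and -0.61 in animal 8. Animal 8 was the lowest of the TBI animals in Homer1, at 162 CPM against at least 249 in the others.

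Tyrobp divided the injured animals into sets: animals 4, 7 and 8 had 125, 134 and 132 CPM and the other 5 had 63.1 to 87.1 CPM. Cd68 and Gfap had their 3 highest values in the same 3 animals, and so had Cd74. Cxcl10 was high in animals 4 and 7 only, with animal 8 at 10.9 CPM among the low ones. Arc had its highest values in animal 1 (330 CPM) and animal 7, one from each set, and Pvalb ranged from 34.6 to 53.7 CPM with no such division. Because the animals fell into sets of 3 and 5, no correlation over the 8 is given, and neither set was large enough for one.

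**Figure D5:**
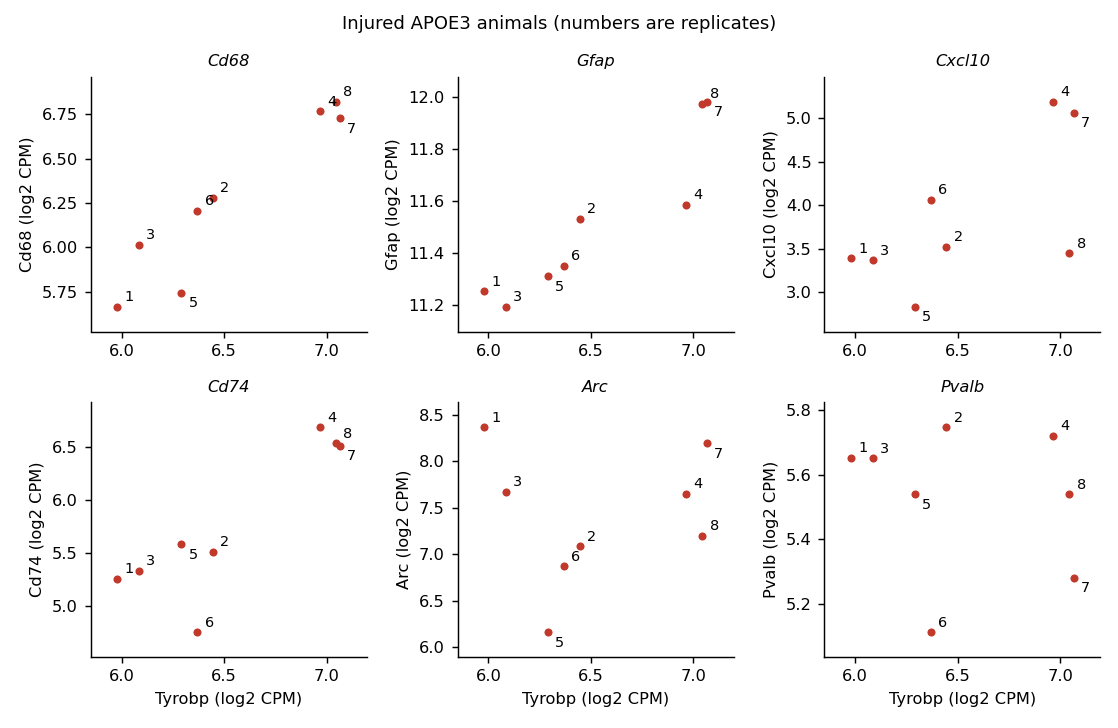
Log2 CPM of 6 genes against Tyrobp in the 8 TBI animals, labelled by replicate number. Animals 4, 7 and 8 are separate from the other 5 along Tyrobp and are also the highest in Cd68, Gfap and Cd74, whereas Cxcl10 is low in animal 8 and Arc and Pvalb show no such separation.

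The injury difference was also compared between the letters and between the genotypes. With the letter as a term of its own, the injury difference depended on it in 0 of 5437 tested genes (0.0%) by the edgeR quasi-likelihood test with Benjamini-Hochberg adjustment, and in 163 (3.0%) at an unadjusted p under 0.05. DESeq2 and limma-voom also gave 0, with 135 and 179 unadjusted. The smallest p was that of Lrig1, a growth factor receptor antagonist, whose CPM in the F animals was 112 ± 11.4 under TBI (SD, n = 4) and 69.6 ± 2.51 under sham (SD, n = 4). In the M animals it was 91.1 ± 3.95 under TBI (SD, n = 4) and 77.2 ± 5.74 under sham (SD, n = 3), and the difference between the injury effects did not pass.

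Between APOE3 and APOE4, 0 of 5408 genes (0.0%) passed the edgeR quasi-likelihood test of the difference in injury effect over 30 animals, and 112 (2.07%) had an unadjusted p under 0.05. DESeq2 and limma-voom gave 0 as well, with 96 and 115 unadjusted. Serpina3n had the smallest p. Its CPM was 54.8 ± 11.8 in APOE3 shams (SD, n = 7) and 411 ± 163 in APOE3 TBI animals (SD, n = 8), and 223 ± 78.7 in APOE4 shams (SD, n = 7) and 499 ± 433 in APOE4 TBI animals (SD, n = 8). The APOE4 injury difference minus the APOE3 injury difference was -1.93 ± 0.42 on the log2 scale, which did not pass (adjusted p = 0.443). Its neighbour Serpina3m had a similar pattern at lower counts, at -2.06 ± 0.66, and reads may be shared between the copies. A difference that misses the threshold does not show that the genotypes respond alike.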

How the data were processed

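Read counts per gene were deposited by the authors as 1 table for all 32 libraries; per the file headers the counts are raw. Subread 1.5.0, edgeR 3.14.0 and the build mm10 are listed in the submitters' processing notes. The sources used here do not state the role of each, the annotation, the strand setting or how human APOE reads were treated. The authors' log2 coefficients and p-values in that table were not used, other than the highest p. Date-like symbols were restored for 13 genes from NCBI identifiers, and 5557 identifiers matched RefSeq GRCm38.p6.

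Counts of the 15 APOE3 animals were fitted with edgeR 4.0.16 (R 4.3.3): filterByExpr (5339 genes kept, 243 dropped), TMM, and the quasi-likelihood F-test with group and title letter. The biological coefficient of variation was 11.4%. Standard errors were taken as the size of the log2 difference divided by the square root of F. CPM were scaled with the TMM factors over the listed genes. Interactions were tested with the letter (15 animals) and with genotype (30 animals). Alternatives were DESeq2 1.42.0, limma-voom (limma 3.58.1), other scaling, filters, covariates and subsets, and each animal left out. The scripts were tested on simulated counts. Animals have separate numbers, so replicates were taken as separate animals; intervals and floors cover counting error only.

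The members and the 36 gene lists were chosen with earlier results of these data known. Genes are named by a rule. It takes, from genes that passed and averaged 0 log2 CPM or more, the largest rises and falls, the smallest p, the largest members of each list with those that went against it or did not pass, the largest and smallest spread, genes with 0 sham counts, the smallest interaction p, and Trem2, Tyrobp and Apoe. Members outside it are said to be so in the text, and some genes the rule takes are not reported here. Of 756 distinct list members 531 were in the table and 505 were tested. A letter or a depth class is a label of the title or of the totals, not a known batch.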

Additional observations from a re-analysis of the deposited data

Results flagged for a closer look

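Within each group, the gap between the most extreme animal and its nearest neighbour was divided by the group's range. Both were taken on the log2 scale, while gene levels are printed as CPM. The ratio was set against Dixon's critical value, 0.526 for 8 animals and 0.568 for 7. Of 324 gene groups 19 exceeded it, and of 70 groups of list scores 5 did; chance flags about 1 in 20 groups.

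TBI animal 8 exceeded it most often. It was highest in Cdh5 (0.683, 49.9 CPM against 29.9 in the next animal) and lowest in Homer1 (0.584, 162 CPM against 249), Ppp3cb, a calcineurin subunit (0.744, 642 CPM against 869), and Scn3b (0.622, 276 CPM against 400 CPM). Its list scores stood above the other injured animals for homeostatic astrocyte genes (0.641, a score of 0.64 against 0.39), matrix and scar genes (0.528, 1.77 against 1.12) and endothelial genes (0.541, 1.03 against 0.57). TBI animal 1 was lowest in Atp6v0d2 (0.554, 0.346 CPM against 2.03) and Cd300lf (0.664, 0.115 CPM against 1.69). TBI animal 4 was lowest in Adcy1 (0.579).

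Among the shams, animal 4 was highest in Cd68 (0.593, 24.7 CPM against 18.2) and lowest in Idi1 (0.794, 5.73 CPM against 10.2) and Itgax (0.597, no counts). Sham 5 held the single Atp6v0d2 count (1.0) and was lowest in Psmb8 (0.653). Sham 6 was highest in Krt80 (0.679) and Rspo1 (0.672), and sham 7 in Trem2 (0.726, 23.8 CPM against 19.8), Ndufv1 (0.59) and the oxidative phosphorylation score (0.615). Sham 2 was lowest in Dsp (0.644) and highest in Slc17a6 (0.602, 155 CPM against 106) and in the score of thalamus and striatum markers (0.63, 0.36 against 0.02). Sham 1 was lowest in Tlr2 (0.616).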

How the results depend on the processing

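None of the calls for the 162 named genes changed direction in the settings run. Counting each gene in each fit as 1 result, leaving out 1 animal at a time lost the call in 23 results and gained it in 23. It stayed the same in 2324. In the other settings the call was lost in 77 results, gained in 27 and the same in 1777. Counts moved by over 1.5 times where animals were fewer or the scaling or threshold changed. Total-count scaling left 864 genes lower. The shallow libraries alone gave 1665 past the threshold, 974 higher, 691 lower and 12 at least 2-fold lower; the deep libraries 2026, 1188 and 838; the animals with M 2092, 1146 and 946; and those with F 1803, 1173 and 630. At an adjusted p of 0.01 there were 2475, with 1126 lower. With each animal left out in turn 3284 to 3888 genes passed. Of the 3762 genes 96.5% also passed with DESeq2, 98.1% with limma-voom and 73.9% with total-count scaling, and 8 of them had the other sign with the last. Adding F1372, the sham whose labels disagree on genotype, gave 3791.

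List medians moved by more than the spread between injured animals as follows. Chemokines and cytokines gave 1.51 without the letter, 1.53 in the shallow libraries and 1.24 in the animals with F. Fast-spiking genes gave -0.46 with total counts and -0.45 with F, oxidative phosphorylation -0.0106 with total counts, and macrophage markers 1.02 with F. Oligodendrocyte genes, at 0.12 over all 15 animals, gave 0.33 in the shallow libraries and turned to -0.0129 in the deep ones. Neutrophil markers gave 5.05 without the letter, 5.0 in the shallow and 5.17 in the deep libraries and 5.19 with F, with fewer members tested. The median of T and NK cell markers turned from 0.89 to -1.53 with F, over the members tested in that fit, and most of the markers did not turn. By mean CPM in the F animals, Ccl5 (0.307 under sham and 3.02 under TBI), Trac (0.858 and 1.9) and Lck (2.26 and 3.34) were higher under TBI. Only Trbc2 (4.76 and 1.9) was lower. Thalamus and striatum markers turned from 0.33 to -0.0770 with M, and gave 0.66 with F. Among genes that had not passed, Cacnb3 was 0.0252 with total counts and Scarb2 was -0.0553 with M. The cause of these shifts was not tested.

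The planned correlations with Tyrobp are not given, because the 8 injured animals fell into separate sets. No paired analysis was possible because animal numbers do not pair injured with sham animals. Counts were low for many cytokines and cell markers, which limits those comparisons.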

Other observations

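The title letter had its own main effect, apart from injury, in 6 of 5339 genes (0.112%) by the edgeR quasi-likelihood test with Benjamini-Hochberg adjustment over the 15 APOE3 animals, and 664 (12.4%) had an unadjusted p under 0.05. The 6 genes, named after their values were seen, were Otof, Col6a1, Txnip and Adgb, lower in the animals with M, and Etl4 and Atxn1, higher in them.

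A total of 11 genes in the table had no count in any APOE3 sham, and 2 of these, Mmp3 and Il1rn, had enough counts to be tested. Among those not tested, Slfn4, an interferon-responsive gene of myeloid cells, had 116 counts in the TBI group. With 3 counts over all shams as the floor, that was at least 36.2-fold higher, and at least 23.6-fold without TBI animal 4. Lilr4b, a close copy of Lilrb4a with which it can share reads, had 94 counts, at least 29.3-fold higher. The C-type lectin Clec4d had 65, at least 20.3-fold higher, and the immunoglobulin segment Igkv14-111 had 71, at least 22.1-fold higher. No count of Igkv14-111 was found in 4 of the 8 TBI animals, and animal 1 held 45 of the 71, without which the group was at least 10.5-fold higher.

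Genes outside the lists with a wide spread among the injured animals included Cd300lf, a myeloid receptor (3.61 ± 0.63), and Irg1, which makes itaconate in activated phagocytes (3.72 ± 0.82); both were highest in animals that were also high in Tyrobp. The vessel-associated mucin Glycam1 rose by 3.48 ± 0.41, from 0, 0.169 and 1.32 to 2.3, 4.41 and 5.45 CPM as lowest, median and highest, with no overlap between the groups. Txnip, a thioredoxin inhibitor of the stress list, rose by 0.72 ± 0.08, and 6 of 8 TBI animals lay above every sham. It was also 1 of the 6 letter genes (-0.48 ± 0.08, M minus F), with a mean of 54.7 CPM in M and 84.6 CPM in F animals under TBI and of 37.2 and 46.4 CPM under sham. The steroid-activating enzyme Hsd11b1 fell by 0.51 (adjusted p = 7.87e-04), and its injury difference was among the 5 smallest p of the letter interaction, none of which passed.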
